A study of Mus musculus with 15 samples.

Results

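The nuclear genes of oxidative phosphorylation were described in sorted retinal microglia from wild-type and Apoe-/- mice. Members were chosen by symbol from the deposited gene table: the Nduf genes of complex I, Sdha to Sdhd of complex II, the Uqcr genes of complex III, the Cox5 to Cox8 genes of complex IV and the Atp5 genes of complex V. Of 99 symbols that fitted these patterns, 13 carried the pseudogene suffix -ps and were left out, which left 86 of 35735 genes. They comprised 40 genes of complex I (7 core, 33 accessory), 4 of complex II, 8 of complex III, 17 of complex IV and 17 of complex V. The annotation called 82 of them protein coding and 4 processed pseudogenes (Cox6c2, Ndufa11b, Ndufb4c and Ndufs6b). The symbol rule leaves out 5 subunits or carriers of the chain, Cox4i1, Cox4i2, Ndufab1, Cyc1 and Cycs, which are given apart.

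RNA was sequenced in bulk from 15 retinas of C57BL/6 mice aged 12 weeks. The groups were wild type with a sham injection (n = 4), wild type with a microbead injection (n = 3), Apoe-/- with a sham injection (n = 4) and Apoe-/- with a microbead injection (n = 4). Microbeads in the front of the eye obstruct drainage and raise the pressure inside it, a model of glaucoma. Apolipoprotein E, the product of Apoe, is a lipid carrier that activated microglia produce. The labels give the Apoe-/- genotype with no further detail of the allele. Cells were sorted as CD11b+, Fcrls+ and Ly6c-, 100 to 600 from each retina. Whether the numbered retinas stem from separate mice is not given in the labels, so p-values reflect no more than the variation among these libraries, some of it perhaps technical. The names of the deposited tables put all wild-type libraries under plate letter G and all Apoe-/- libraries under H, so genotype and plate cannot be told apart.

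Oxidative phosphorylation passes electrons from NADH through complex I, and from succinate through complex II, to ubiquinone, then through complex III and cytochrome c to complex IV, which reduces oxygen. Complexes I, III and IV pump protons across the inner mitochondrial membrane, and complex V, the ATP synthase, lets them flow back and makes ATP. Complexes I, III, IV and V combine subunits encoded in the nucleus with subunits encoded in mitochondrial DNA, whereas complex II is wholly nuclear. In microglia the balance between this pathway and glycolysis is known to differ between resting and activated states.

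Libraries held 458303 to 714838 reads assigned to genes, of which 40.8 to 74.4% fell on 12 gene models that collect satellite repeats. In wild type that share averaged 61.3% ± 4.51 (SD, n = 4) after sham and 45.2% ± 7.23 (n = 3) after microbead injection, and in Apoe-/- retinas 67.7% ± 4.48 (n = 4) and 64.1% ± 6.58 (n = 4). Levels per 1000000 reads (CPM) were therefore taken on effective library sizes from TMM, the smallest being 235401 (Apoe-/- sham library 2) and the largest 1045693 (wild-type microbead library 2). Apoe had 0 to 6 reads in Apoe-/- libraries and 667 reads or more in every wild-type library. All 10 microglial markers had reads in each group, and their summed level was 7049 to 14090 CPM per library. All 15 rod photoreceptor markers also had reads in each group, in wild type at 560 to 2571 CPM after sham and 96.0 to 643 CPM after microbead injection, and in Apoe-/- retinas at 154 to 1610 and 181 to 2542 CPM.

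The tested members had a higher median level than all genes tested. Deposited TPM, which corrects for transcript length, had a median of 12.1 over the 64 members tested, against 4.16 over all 6521 genes tested (means of 15 libraries). Reads were nevertheless few: 69 members had reads in every library, 3 had none in any, and the tested members had a median of 11.5 reads per library. The filter on low counts kept 64 members, and of the 22 left out, 10 had 12 or fewer reads over all 15 libraries. It acts on reads and not on TPM, so it bears on the contrast of the TPM medians. Atp5md, at 20.1 TPM, and Uqcr10, at 11.9 TPM, were among those left out.

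In complex I the 7 core subunits, which carry the flavin, the iron-sulfur clusters and the quinone site, had mean TPM values from 5.24 (Ndufs1, which carries iron-sulfur clusters) to 16.0 (Ndufs7, an iron-sulfur subunit near the quinone site). Ndufs3, a core subunit of the arm that meets quinone, had 10.2 TPM. The accessory subunits spread further, from 5.15 (Ndufa9) to 34.5 TPM (Ndufa4) among the 22 tested. Ndufa4 had the highest mean TPM of all 86 members; its symbol places it in complex I, although later work assigned its protein to complex IV. Its paralogue Ndufa4l2, known as a hypoxia-induced gene, had 0 reads in all 15 libraries, as did Cox6c2 and Cox7b2. With a limit of 3 reads over all libraries, 0 reads allow a level of up to 0.334 CPM, counting error only.

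Complex II had the lowest summed level, and with 4 genes it was also the smallest set. The median of its 3 tested genes was 9.11 TPM. That of complex I was 7.99 for core and 9.03 for accessory genes, and complexes III, IV and V had 15.9, 18.8 and 14.6 TPM. Sdhb, the iron-sulfur subunit, had 10.1 TPM, Sdha, the flavoprotein that oxidises succinate, had 9.11, and Sdhd, a membrane anchor, had 5.22. Sdhc, the other anchor, had 1.61 TPM and was not tested. Among the tested genes of complex III the range ran from 4.48 TPM (Uqcrc2, a core protein) to 20.4 TPM (Uqcrh, the hinge protein that contacts cytochrome c1), with Uqcrq, a small membrane subunit, at 18 TPM. In complex V it ran from 5.67 (Atp5g2) among tested genes to 26.4 TPM (Atp5b, the catalytic beta subunit), followed by Atp5l, subunit g, at 22.4 TPM.

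The 10 tested genes of complex IV lay between 11.9 (Cox7b) and 34.1 TPM (Cox8a), a 2.88-fold range. The range among tested complex I accessory subunits was 6.70-fold with Ndufa4 counted there, and the next highest of them, Ndufa3, had 20.1 TPM. The tissue isoforms of complex IV divided sharply. Cox6a1, the isoform of most tissues, had 249 reads over the 15 libraries and Cox6a2, the heart and muscle isoform, had 12. Cox8a had 394 reads, Cox8b 4 and Cox8c 3. Cox7a2 had 172 reads and the muscle isoform Cox7a1 had 3. Cox6b1 had 276 reads and the testis isoform Cox6b2 had 6. The reads of each pair come from the same libraries, and these rare isoforms were not tested between groups.

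**Figure D1:**
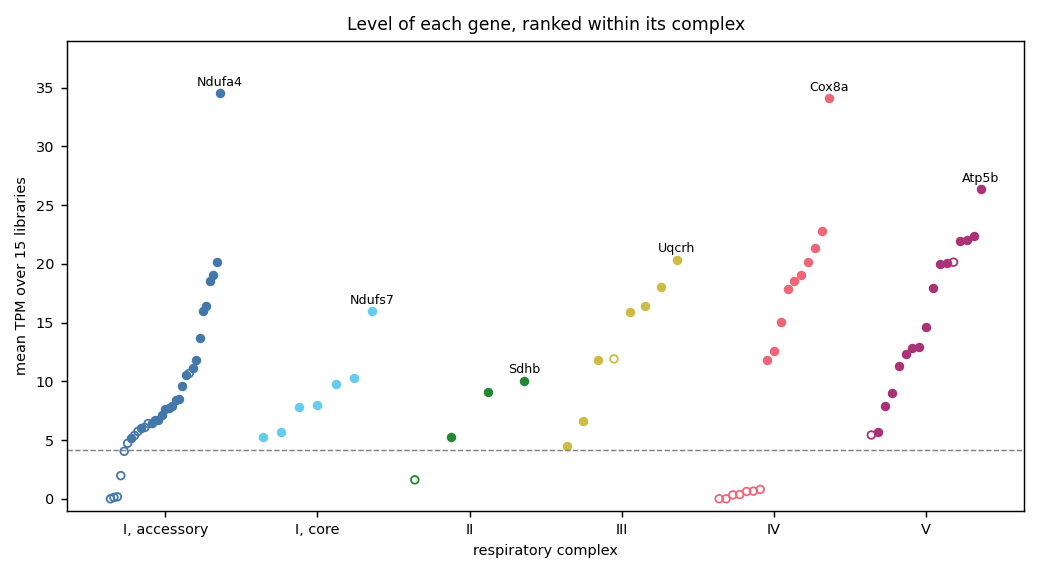
Mean deposited TPM over 15 libraries (y axis) of each of the 86 genes, ranked within its respiratory complex (x axis). Filled points are the 64 genes tested, open points those not tested, and the dashed line is the median of all genes tested, 4.16 TPM. Ndufa4, at 34.5 TPM, and Cox8a, at 34.1 TPM, stood highest.

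A further feature that the symbol rule did not use is promoter sequence. RefSeq promoters (build GRCm38.p6, 250 bases before to 50 after the start) were matched for 68 members and searched on both strands. GCATGCGC, the core letters of the NRF1 motif, was found in 14.7% of them (10 of 68), in 3.90% of protein-coding promoters, in 6.03% of those of tested genes and in 3.05% of all 27025. AAGATGGC, the core letters of the YY1 motif, was also found in 14.7%, against 3.52, 6.21 and 3.19%. CCGGAAG, the core letters of the ETS motif that GABPA reads, was found in 25%, against 12.9, 22.8 and 9.93%, so its share among members was close to that among tested genes. The longer NRF1 palindrome, which contains GCATGCGC on both strands, was found in 5 members (Atp5g2, Atp5k, Cox6a1, Ndufa11 and Uqcrc1), 7.35% against 2.37% of tested genes. A longer GABPA form, CCGGAAGT, was also found in 5 members, 7.35% against 10.6% of tested genes, so its share among members was the lower one. At least 1 of the 3 short motifs was found in 31 of the 68. No such combined share is given for other promoters, and CCGGAAG alone was in 22.8% of those of tested genes. A match is a description of the letters, and binding was not measured. Promoters are shown for Uqcrc1, a core protein of complex III, for the complex I core gene and the complex IV gene with the highest TPM, and for Uqcrh, with the matched letters in capitals and each strand read 5′ to 3′ along the gene.
Uqcrc1, chr9:108936398-108936697, plus strand, NRF1 letters: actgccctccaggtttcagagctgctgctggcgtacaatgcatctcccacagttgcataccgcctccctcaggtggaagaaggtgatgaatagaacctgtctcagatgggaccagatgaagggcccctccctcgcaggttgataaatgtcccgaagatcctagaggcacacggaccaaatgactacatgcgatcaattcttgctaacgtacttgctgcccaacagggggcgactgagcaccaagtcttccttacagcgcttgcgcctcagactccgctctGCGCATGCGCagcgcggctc
Ndufs7, chr10:80249199-80249498, plus strand, YY1 letters: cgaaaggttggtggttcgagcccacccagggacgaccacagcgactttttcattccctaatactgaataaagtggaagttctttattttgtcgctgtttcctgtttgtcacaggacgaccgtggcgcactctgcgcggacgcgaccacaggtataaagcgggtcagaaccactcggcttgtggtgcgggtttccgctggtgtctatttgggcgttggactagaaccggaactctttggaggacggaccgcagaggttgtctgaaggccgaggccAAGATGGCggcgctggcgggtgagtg
Cox8a, chr19:7217567-7217866, minus strand, GABPA letters on the opposite strand: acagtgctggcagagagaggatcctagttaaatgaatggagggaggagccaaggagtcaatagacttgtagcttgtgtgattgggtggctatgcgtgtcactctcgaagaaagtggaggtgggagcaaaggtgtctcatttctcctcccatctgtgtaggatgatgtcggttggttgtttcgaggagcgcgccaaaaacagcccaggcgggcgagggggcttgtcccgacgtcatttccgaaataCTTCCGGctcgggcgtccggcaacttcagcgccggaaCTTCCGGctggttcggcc
Uqcrh, chr4:116075021-116075320, minus strand, GABPA letters on the opposite strand: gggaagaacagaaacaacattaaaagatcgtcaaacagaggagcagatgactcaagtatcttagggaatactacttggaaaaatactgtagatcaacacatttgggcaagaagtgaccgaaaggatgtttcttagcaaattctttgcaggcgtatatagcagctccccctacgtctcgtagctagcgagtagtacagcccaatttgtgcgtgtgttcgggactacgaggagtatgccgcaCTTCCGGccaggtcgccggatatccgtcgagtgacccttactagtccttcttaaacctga

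The summed level of all 86 genes differed little between groups. In wild type it was 1835 ± 95.3 CPM (SD, n = 4) after sham and 1948 ± 126 CPM (n = 3) after microbead injection, and in Apoe-/- retinas 1741 ± 137 (n = 4) and 1917 ± 293 CPM (n = 4). Every pair of groups compared overlapped, with ratios of means from 0.949 (Apoe-/- against wild type in sham) to 1.10 (microbead against sham in Apoe-/-). In bulk RNA, fewer cells of a type and less RNA per cell cannot be told apart. Complexes I and V made up most of the reads, 34.6% (31.9 to 38.1% over the 15 libraries) and 32.9% (29.0 to 38.2%), followed by complex IV with 15.04% (11.4 to 19.8%), complex III with 10.4% (8.62 to 11.9%) and complex II with 7.01% (5.42 to 9.09%). The deposited TPM, which is not scaled by TMM, gave a ratio of 1.91 for microbead against sham in wild type and 0.493 for Apoe-/- against wild type in microbead. On that scale the median of all genes tested also shifted, by 0.58 and -0.73 on the log2(TPM + 1) scale.

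Complex IV, as defined by the symbols, was the complex whose groups separated, and it did so in wild type. Its summed level was 259, 250, 275 and 198 CPM in the 4 wild-type sham libraries and 280, 333 and 324 CPM in the 3 wild-type microbead libraries. The lowest microbead library exceeded the highest sham library, with a ratio of means of 1.27. That margin, 280 against 275 CPM, was smaller than the difference in Cox7a2l alone between these libraries (56.9 against 42.4 CPM). Ndufa4, placed in complex I by its symbol, is not in the sum and averaged 30.0 CPM in microbead and 34.1 CPM in sham libraries. The separation thus depended on which genes were counted. In Apoe-/- retinas it was 313, 287, 250 and 224 CPM in sham and 188, 451, 351 and 241 CPM in microbead libraries, which overlapped, and the microbead libraries held both the lowest and the highest value. Cox4i1, a complex IV subunit outside the rule, was higher in each wild-type microbead library than in any sham library. In that comparison 6.27% of all genes tested were higher without overlap. Cox4i1 had 111 ± 22.0 CPM (n = 3) against 75.1 ± 17.7 (n = 4), and did not pass the test (log2 fold change 0.55, SE 0.33, edgeR adjusted p = 0.716). Sums of a chosen set were given no test. Other measures moved with the complex IV sum in wild type. Rod markers (15 of 15 with reads) summed to 560 to 2571 CPM in sham and 96.0 to 643 CPM in microbead libraries, which overlapped, and the satellite share was 55.9 to 66.6% in sham and 40.8 to 53.5% in microbead libraries, which did not overlap. Dissociation and immediate early genes (11 of 12 with reads, Hspa1b at 0) summed to 220 to 3777 CPM in sham and 1357 to 8062 CPM in microbead libraries. Monocyte markers (5 of 6 with reads in each group, Plac8 at 0 in sham and Chil3 in microbead) summed to 11.5 to 46.5 and 33.6 to 79.6 CPM. Mueller glia markers (5 of 7, with Aqp4 and Dkk3 at 0 in sham and Rlbp1 and Aqp4 in microbead) summed to 83.6 to 148 and 120 to 273 CPM. The ranges of these marker lists overlapped, and the part of these measures in the complex IV difference was not tested.

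Complexes I, II, III and V overlapped in all 4 pairs of groups. Complex I averaged 654 ± 31.0 CPM after sham and 661 ± 11 CPM after microbead injection in wild type, and 613 ± 67.9 and 639 ± 89.4 CPM in Apoe-/- retinas. Complex V averaged 631 ± 50.3, 635 ± 55.4, 556 ± 42.3 and 621 ± 53.7 CPM in the same order, complex III 183 ± 27.5, 209 ± 23.1, 186 ± 33.0 and 200.5 ± 21.1 CPM, and complex II 121 ± 9.08, 131 ± 24.4, 118 ± 26.1 and 149 ± 24.0 CPM (SD, n = 4, 3, 4 and 4).

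The 13 mitochondrially encoded genes, whose proteins join the nuclear subunits in the same complexes, had sums with a larger SD in Apoe-/- libraries. In wild type their sum was 1599 ± 157 CPM after sham (SD, n = 4) and 1670.5 ± 185 CPM after microbead injection (n = 3), and in Apoe-/- retinas 1618 ± 532 (n = 4) and 2249 ± 1216.5 CPM (n = 4). Apoe-/- microbead libraries 2 and 3 had 3336 and 3232 CPM and library 1 had 939 CPM. The same libraries 2 and 3 were the highest of their group for complex IV, and library 1 the lowest. Of the 13 genes, 5 (mt-Atp6, mt-Co2, mt-Co3, mt-Nd3 and mt-Nd4l) were listed at 0 in at least 1 library. In Apoe-/- microbead libraries mt-Co2 ranged from 0 to 273, mt-Co3 from 0 to 286 and mt-Atp6 from 0 to 458.5 CPM. In all 3 wild-type microbead libraries mt-Co2 was listed at 0, and mt-Nd4l in all 8 Apoe-/- libraries, so the sums and their spread hold genes that switch between 0 and high values. Of 12 mitochondrial genes tested, 5 had a positive log2 fold change for microbead against sham in wild type and 11 in Apoe-/- retinas, and none passed the test in any of the 5 comparisons.

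**Figure D2:**
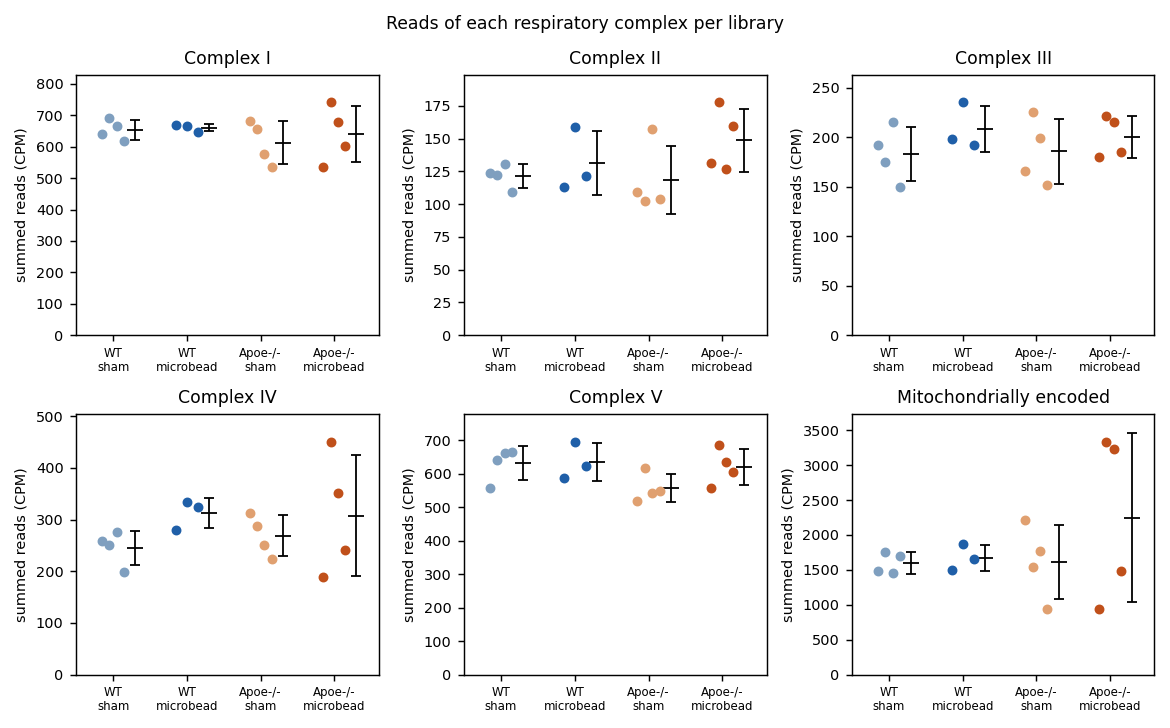
Summed reads in CPM (y axis) of the genes of each complex and of the 13 mitochondrially encoded genes, with 1 point per library in each of the 4 groups (x axis); bars give the mean and SD. In wild type the 3 microbead libraries lay above the 4 sham libraries for complex IV (280 to 333 against 198 to 275 CPM), and the other panels overlapped.

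No member passed the test in any comparison. Each genotype gave a microbead response, the 2 responses were set against each other, and Apoe-/- was set against wild type in each treatment. They share groups and are not independent. With edgeR's quasi-likelihood test at an adjusted p of 0.05, 0 of 64 members were called for microbead against sham in wild type, where 0.199% of all genes tested were called (13 of 6521). None were called for microbead against sham in Apoe-/- (0% of all genes), for the difference (0%), for Apoe-/- against wild type in sham (0.0153%) or for Apoe-/- against wild type in microbead (0.046%). Without adjustment, 1, 3, 2, 3 and 1 members had p under 0.05, in that order, against 7.9, 6.96, 3.37, 8.69 and 7.19% of all genes tested. DESeq2 and limma voom also called 0 members in each comparison. The 95% interval of a member's log2 fold change, not adjusted for the number of genes, had a median half-width of 0.83 in wild type and 0.87 in Apoe-/-. Depth, the spread between libraries and their number all enter that width.

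The medians were near 0. For microbead against sham the median log2 fold change of the 64 members was 0.09 in wild type (all genes -0.01) and 0.05 in Apoe-/- (all genes 0.01), and 38 and 41 of the 64 were positive. For Apoe-/- against wild type it was -0.06 in sham and -0.06 in microbead retinas, with 26 and 27 positive. By complex, the largest median in wild type was that of complex IV, 0.30, with 9 of 10 genes positive, beside -0.05 for complex I, -0.04 for complex II, 0.02 for complex III and 0.10 for complex V. In Apoe-/- retinas the complex IV median was 0.14, with 7 of 10 positive.

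**Figure D3:**
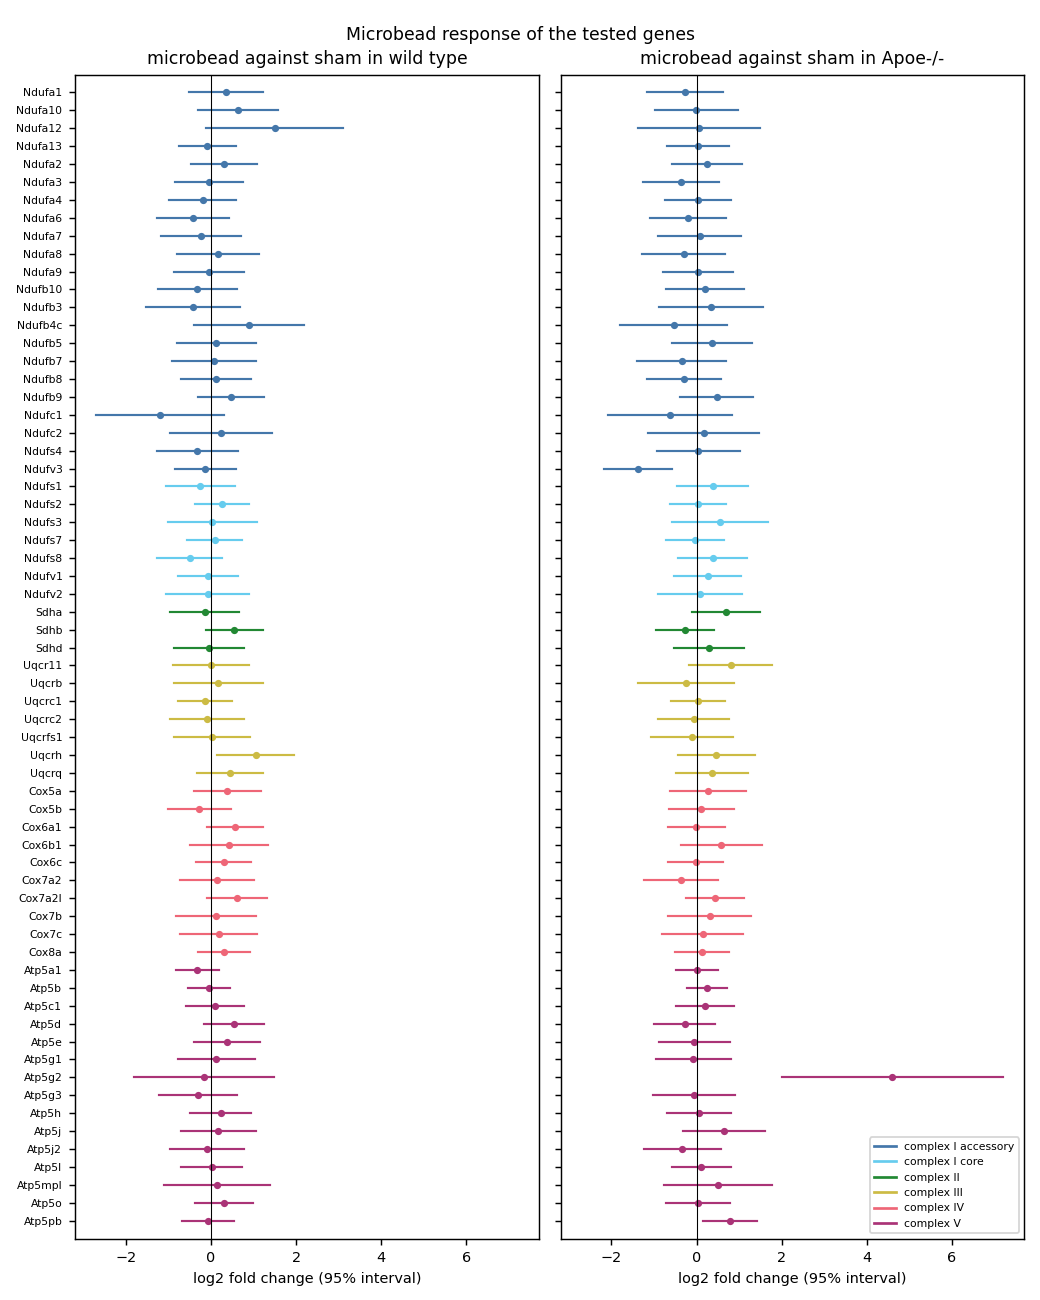
Log2 fold change for microbead against sham (x axis) of the 64 tested genes (rows, coloured by complex) in wild type (left) and Apoe-/- (right); points are edgeR estimates and lines their 95% intervals. Most intervals cover 0, and Atp5g2 stands apart on the right at 4.60.

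In wild type, Uqcrh of complex III had the smallest p of the members. Its reads were 9, 10, 26 and 6 in the sham libraries and 29, 50 and 21 in the microbead libraries, or 13.1, 16.7, 29.8 and 12.3 CPM against 40.2, 47.8 and 26.8 CPM. Sham library 3 lay above microbead library 3, so the groups overlapped. The log2 fold change was 1.05 (SE 0.43, edgeR adjusted p = 0.542). In Apoe-/- retinas Uqcrh had 25.04, 38.2, 24.97 and 17.4 CPM in sham and 13.9, 60.0, 48.3 and 22.4 CPM in microbead libraries. The range in microbead libraries took in that of the sham libraries, and the log2 fold change was 0.46 (SE 0.43, edgeR adjusted p = 0.828).

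Of the 64 tested members, 2 were higher without overlap in wild-type microbead libraries, both of complex IV, and 6.27% of all genes tested showed this pattern. The untested Cox6a2 also did not overlap, with 0 reads in the sham and 6 in the microbead libraries. Cox7a2l had 42.1, 53.5, 42.4 and 30.9 CPM in sham and 56.9, 73.6 and 63.8 CPM in microbead libraries. Its log2 fold change was 0.61 (SE 0.33, edgeR adjusted p = 0.695). Cox6a1 had 20.3, 23.4, 25.2 and 20.6 CPM in sham and 31.9, 34.4 and 33.2 CPM in microbead libraries (log2 fold change 0.56, SE 0.31, edgeR adjusted p = 0.701). Both genes were higher in all 3 microbead libraries, and neither passed the test. Cox5b, another complex IV subunit, was the single tested member lower without overlap (log2 fold change -0.28, SE 0.36, edgeR adjusted p = 0.892), against 4.29% of all genes tested. In Apoe-/- retinas Cox7a2l and Cox6a1 overlapped between treatments, with log2 fold changes of 0.44 (SE 0.33) and -0.01 (SE 0.32).

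Ndufa12, an accessory subunit added late in complex I assembly, and Sdhb were also among the 5 smallest p-values in wild type. Ndufa12 had 2, 0, 4.4 and 3 reads in sham and 11, 4 and 9 in microbead libraries. Its groups overlapped at this low depth, and the log2 fold change of 1.495 (SE 0.77, edgeR adjusted p = 0.666) became 0.85 when the reads of its pseudogene copy Gm15920 were added. The lowest group mean of Ndufa12 was that of wild-type sham libraries, 3.52 CPM. Apoe-/- retinas averaged 10.8 CPM (sham) and 11.3 CPM (microbead), near the 10.2 CPM of wild-type microbead libraries. Sdhb had a log2 fold change of 0.55 (SE 0.32, edgeR adjusted p = 0.716).

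In Apoe-/- retinas the member with a lower level in microbead libraries and no overlap was Ndufv3, a small accessory subunit of the NADH-binding module of complex I; 0.981% of all genes tested were lower without overlap. No member was higher without overlap in that comparison (1.56% of all genes tested). Ndufv3 had 29.2, 38.6, 24.97 and 26.9 CPM in Apoe-/- sham and 13.9, 3.27, 13.5 and 13.4 CPM in Apoe-/- microbead libraries. The highest microbead library lay well below the lowest sham library. These values rest on 9.1 to 15 reads per sham library and 1.3 to 9 per microbead library. The log2 fold change was -1.38 (SE 0.38, 95% interval -2.17 to -0.58), with an edgeR p of 0.00184 before and 0.697 after adjustment over all genes.

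In wild type Ndufv3 had 27.6, 18.9, 27.1 and 36.3 CPM in sham and 23.1, 26.1 and 25.8 CPM in microbead libraries. These groups overlapped, and the log2 fold change was -0.13 (SE 0.34, edgeR adjusted p = 0.958). The difference between the responses was -1.24 (SE 0.51, edgeR adjusted p = 1) and did not pass the test. Between genotypes Ndufv3 was lower in all 4 Apoe-/- microbead libraries than in any wild-type microbead library (log2 fold change -1.15, SE 0.38, edgeR adjusted p = 0.555), a pattern shown by 3.74% of all genes tested. Leaving out single libraries gave -1.50 to -1.12 for the Apoe-/- microbead response. Of its 50-base windows, 0.701% occur in transcripts of 66 other genes, and its estimated reads were not whole numbers in 12 of 15 libraries, so some were divided between genes. The 7 core subunits of complex I had a median of 0.26 in the same comparison, with 6 of 7 positive.

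Sdha and Atp5pb had positive values in Apoe-/- retinas. Sdha had 50.1, 17.0, 91.5 and 22.4 CPM in sham and 57.4, 96.4, 59.5 and 96.9 CPM in microbead libraries. Sham library 3 lay within the microbead range and the other sham libraries below it, while the 4 wild-type sham libraries lay between 69.9 and 72.7 CPM. The log2 fold change was 0.68 (SE 0.38, edgeR adjusted p = 0.713). Atp5pb, subunit b of the stalk of the ATP synthase, had 22.8, 46.7, 26.6 and 32.4 CPM in sham and 55.4, 41.7, 55.7 and 59.6 CPM in microbead libraries, with overlap from sham library 2 alone. Its log2 fold change was 0.79 (SE 0.30, edgeR adjusted p = 0.697). The Apoe-/- sham group had the lowest mean of Atp5pb, 32.1 CPM. Wild-type libraries averaged 47.6 CPM after sham and 44.4 CPM after microbead injection. Uqcr11, a small subunit of complex III, had a log2 fold change of 0.80 (SE 0.47, edgeR adjusted p = 0.738).

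**Figure D4:**
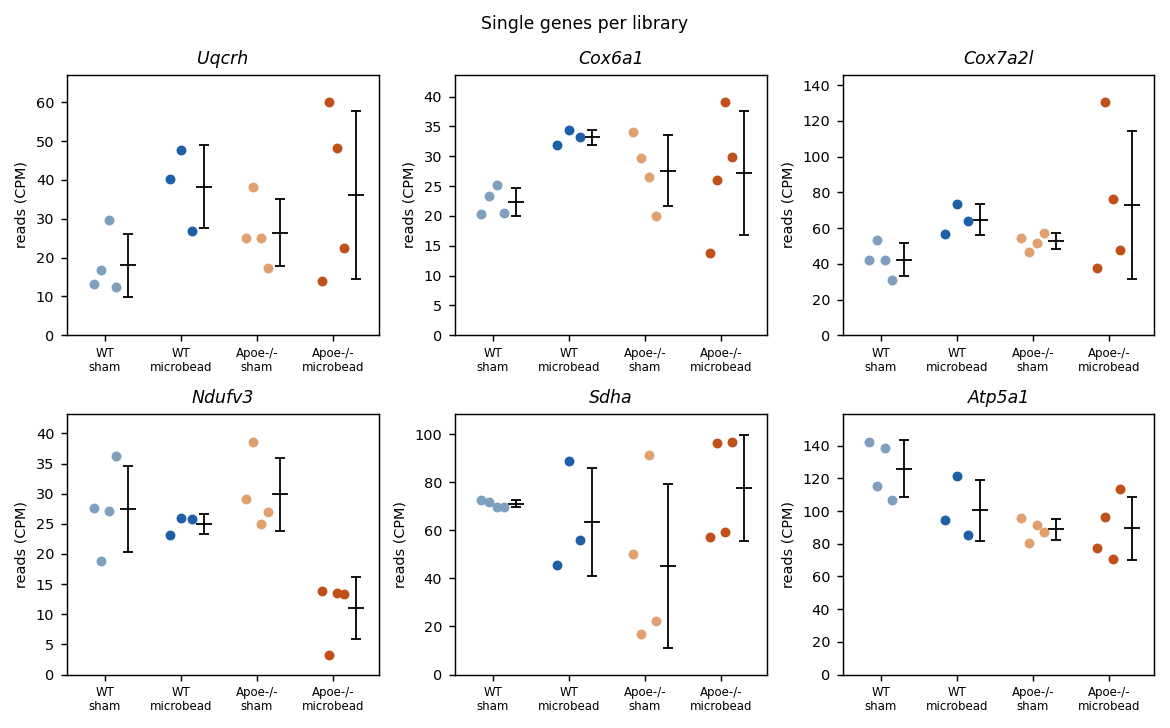
Reads in CPM (y axis) of 6 genes, with 1 point per library in each of the 4 groups (x axis); bars give the mean and SD. Ndufv3 lay at 3.27 to 13.9 CPM in Apoe-/- microbead libraries and at 18.9 CPM or more in all other libraries, and Cox6a1 and Cox7a2l were higher in wild-type microbead than in wild-type sham libraries.

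The largest fitted fold change of any member was that of Atp5g2, a gene whose coding sequence is identical to a stretch of a pseudogene. Atp5g1, Atp5g2 and Atp5g3 encode the same mature c subunit of the proton-driven ring of the ATP synthase behind different import sequences. Atp5g2 (chr15:102662864-102672352, minus strand, mm10) has a processed pseudogene copy, Gm10175 (chr7:23946646-23947290, minus strand). The coding sequence of Atp5g2, 441 bases, was found in the quantified Gm10175 transcript with 0 differences, and 36.7% of the 50-base windows of Atp5g2 transcripts occur there. The first 150 bases, with the start codon in capitals, are the same in both.
Atp5g2 and Gm10175: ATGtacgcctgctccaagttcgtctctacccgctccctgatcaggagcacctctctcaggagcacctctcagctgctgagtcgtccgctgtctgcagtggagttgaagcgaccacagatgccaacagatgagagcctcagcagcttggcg

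Salmon shares a read that fits both transcripts between them by its estimate. In wild type Atp5g2 was given 2.6, 6.5, 8.5 and 16 reads after sham and 16, 7.1 and 7.2 after microbead injection, and in Apoe-/- retinas 1, 0, 0 and 0, and 18, 0, 17 and 5.8 reads. Gm10175 was given 23.4, 32.5, 29.5 and 0, then 27, 51.9 and 33.8, then 12, 8, 22 and 12, and 0, 27, 0 and 21.2 reads in the same libraries. In wild-type sham library 4 and Apoe-/- microbead libraries 1 and 3 the copy was listed at 0, and in the 4 libraries with Atp5g2 at 0 every read went to the copy. In wild type the sum of both was 37.8, 65.2, 43.5 and 32.9 CPM after sham and 59.7, 56.4 and 52.3 CPM after microbead injection, and in Apoe-/- retinas 29.6, 34.0, 36.6 and 29.9, and 35.6, 70.4, 31.6 and 40.2 CPM. The sums overlapped between treatments in both genotypes.

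Taken alone, Atp5g2 had 41 reads in Apoe-/- microbead and 1 in Apoe-/- sham libraries, a ratio per TMM-scaled library of 32.8 (exact 95% interval 5.56 to 1325, counting error only). Its fitted log2 fold change was 4.60 (SE 1.25, edgeR adjusted p = 0.697), and -4.12 (SE 1.29, edgeR adjusted p = 0.556) for Apoe-/- against wild type in sham, where its groups did not overlap. In that comparison 2 members were lower without overlap, Atp5g2 and Atp5a1, against 2.36% of all genes tested, and 0 were higher without overlap, against 1.32%. Without the filter on low counts, edgeR called Atp5g2 in Apoe-/- (adjusted p = 0.000708), in the difference between responses (0.0174) and in Apoe-/- against wild type in sham (0.00977), the sole calls of any member under any setting tried. With the copy's reads added, the log2 fold changes were 0.42 (SE 0.31, edgeR adjusted p = 0.767) in Apoe-/-, 0.10 (SE 0.43, edgeR adjusted p = 1.00) for the difference and -0.46 (SE 0.30, edgeR adjusted p = 0.676) in sham. The read ratio of the sums for Apoe-/- microbead against sham was 1.29 (exact 95% interval 0.914 to 1.84). Atp5g1 and Atp5g3 had log2 fold changes of -0.08 (SE 0.42) and -0.06 (SE 0.46) in Apoe-/-.

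**Figure D5:**
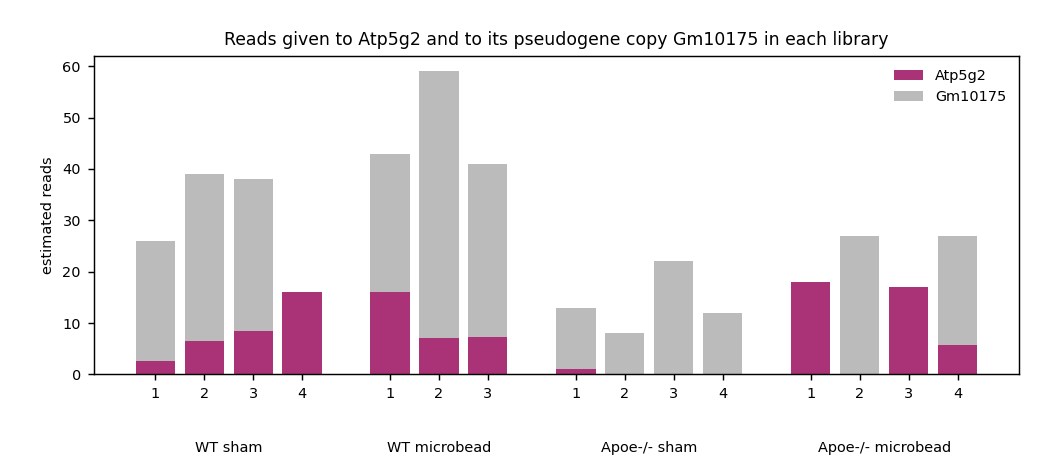
Estimated reads (y axis) given to Atp5g2 (purple) and to its pseudogene copy Gm10175 (grey, stacked) in each of the 15 libraries, numbered within their group (x axis). In Apoe-/- microbead libraries 1 and 3 all reads, 18 and 17, went to Atp5g2, and in Apoe-/- sham libraries 2, 3 and 4 all reads, 8, 22 and 12, went to Gm10175.

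A similar split was seen for Ndufb4, an accessory subunit of complex I. All 50-base windows of the pseudogene Ndufb4c occur in other genes, Ndufb4 among them, and the pseudogene was given 79.3 reads over 15 libraries against 30.7 for Ndufb4. Ndufb4c passed the filter and Ndufb4 did not, so the values of the pair cannot be placed on either. Of the 86 members, 33 shared over 5% of their windows with other genes and 17 were summed with a pseudogene copy. For 15 of those 17 the copy held under 9% of the reads.

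Between genotypes, Atp5a1, the alpha subunit of the ATP synthase, was lower in Apoe-/- sham libraries without overlap. It had 142, 115, 139 and 107 CPM in wild-type sham and 95.6, 80.7, 91.5 and 87.2 CPM in Apoe-/- sham libraries. All 4 Apoe-/- libraries lay below all 4 wild-type libraries. The log2 fold change was -0.50 (SE 0.23, edgeR adjusted p = 0.573). Its partner in the catalytic head, Atp5b, overlapped (log2 fold change -0.32, SE 0.23, edgeR adjusted p = 0.704). Complex V genes had a median of -0.21 in this comparison, with 6 of 15 positive, and complex I core genes a median of -0.42, with 1 of 7 positive. In microbead retinas Atp5a1 overlapped between genotypes (log2 fold change -0.17, SE 0.25). Ndufa12, Ndufb4c and Atp5pb were also among the 5 smallest p-values for Apoe-/- against wild type in sham. Leaving out single libraries gave log2 fold changes of 1.241 to 1.975, 1.083 to 1.463 and -0.79 to -0.48, in that order.

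In microbead retinas 3 tested members were lower in Apoe-/- without overlap (3.74% of all genes tested were): Ndufv3, Ndufa3 (log2 fold change -0.62, SE 0.42, edgeR adjusted p = 0.785) and Atp5o, the stalk subunit OSCP (-0.61, SE 0.34, edgeR adjusted p = 0.718). Uqcrc2 was higher without overlap (0.47, SE 0.41, edgeR adjusted p = 0.837), where 3.07% of all genes tested were. Cox5a of complex IV had a log2 fold change of -0.64 (SE 0.40, edgeR adjusted p = 0.752), and Atp5l 0.57 (SE 0.34, edgeR adjusted p = 0.751). The sign of Atp5l turned on the scale of log2(TPM + 1) (-1.05), with length offsets (-0.15) and with the satellite share as a covariate (-0.23). That of Cox5a turned with the satellite share as a covariate (0.11).

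Genes that serve the same pathway gave no call either. None of the 4 tested of the 5 subunits outside the rule passed the test in any comparison. Of the assembly factors, 5 of 17 for complex I, 8 of 27 for complexes III and IV and 3 of 8 for complexes II and V were deep enough to test, and 0 were called. The 15 tested genes listed for the citric acid cycle, which supplies NADH and succinate, include genes of pyruvate dehydrogenase and had 0 calls. Their median log2 fold change was -0.29 for Apoe-/- against wild type in sham, with 2 of 15 positive, and -0.43 in microbead retinas, with 3 of 15 positive, beside medians of -0.01 and 0.01 over all genes. Pdhb, a subunit of pyruvate dehydrogenase, had the smallest p of that list in microbead retinas (log2 fold change -1.15, SE 0.37, edgeR adjusted p = 0.516). The 6 tested regulators of mitochondrial genes, Nrf1 and Yy1 among them, and the 7 carriers and channels, Vdac2 and Ucp2 among them, had 0 calls in each comparison.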

How the data were processed

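Per the file headers, the authors deposited 1 Salmon table per library with estimated counts of reads, TPM and effective length per transcript, and a gene TPM table for the whole series. TPM is abundance per length scaled to 1000000 in each library, as deposited by the authors; estimated counts need not be whole. The effective length is another quantity per the file headers, used only for length offsets. Build mm10, DESeq2 1.30.1, R 4.0.3 and Salmon 1.4.0 are named per the submitters' processing notes; the annotation release is not given in the sources used here.

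With GENCODE M21, transcripts were summed to genes (116023 of 116945), and unassigned transcripts, 0.217 to 0.354% of reads, were left out. Summed TPM matched the deposited gene TPM for all 86 members in all 15 libraries at a relative tolerance of 0.001. Counts were summed per gene, rounded and tested with edgeR 4.0.16 in R 4.3.3: TMM, filterByExpr, a quasi-likelihood F-test in 1 model of 15 libraries in 4 groups, two-sided, Benjamini-Hochberg over 6521 genes, threshold 0.05. The common biological coefficient of variation was 34.4%. At 458303 to 714838 reads per library, intervals cover counting error where stated. The code was tested on simulated data. Alternatives were other filters, offsets, covariates, a replicate block, leaving out each library, limma 3.58.1 and DESeq2 1.42.0. Adding pseudogene reads was chosen after seeing the data. Counts of replicate libraries differed beyond sampling noise (chi-square per degree of freedom 2.34 or more).

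The members and lists were chosen with earlier results of these data known. Named members were those called, the 5 smallest p-values of each comparison, the highest and lowest TPM of each complex, all of complex II and the tissue isoforms; Cox5b and Uqcrc2 (as non-overlapping), Uqcrc1 (as sequence), Ndufb4 and the other genes listed for low reads or motifs were chosen after their values were seen.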

Additional observations from a re-analysis of the deposited data

Results flagged for a closer look

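In groups of 4 libraries, the gap between an extreme library and its nearest neighbour was set against the whole range of the group, for 39 genes or complexes and 117 groups. Chance flags about 1 in 20 groups, or 5.85 here, and 6 were found. Ndufv3 had 3.27 CPM in 1 Apoe-/- microbead library, from 1.3 reads, while the other 3 had 13.4 to 13.9 CPM. Atp5g2 had 2.28 CPM in 1 Apoe-/- sham library, a single read, and 0 in the others. Atp5g3 reached 26.1 CPM in 1 Apoe-/- microbead library. Cox5a was at 4.25 CPM in 1 Apoe-/- sham library and Ndufa3 at 8.23 CPM in 1 wild-type sham library. The sum of complex II was 157 CPM in Apoe-/- sham library 3, where Sdha had 91.5 CPM, and 102 to 109 CPM in the other 3 libraries.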

How the results depend on the processing

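Genes called for microbead against sham in wild type numbered 13, and 124 without the filter on low counts, 5 with at least 10 reads in 7 libraries, 3 with the rod marker level and 5 with the satellite share as a covariate, 7 with limma voom, 84 on log2(TPM + 1) and 36 with DESeq2. Leaving out single libraries gave 0 to 29: 1, 4, 2 and 4 without wild-type sham libraries 1 to 4, 29 and 0 without wild-type microbead libraries 1 and 2, and 28 without Apoe-/- sham library 2. For Apoe-/- against wild type in microbead there were 3, and 73 without the filter, 1 with the stricter filter, with length offsets and with voom, 186 on log2(TPM + 1), 26 with DESeq2 and 1 to 7 without single libraries (7 without Apoe-/- microbead library 2; 1 without wild-type sham library 1, wild-type microbead library 2, Apoe-/- sham library 4 or Apoe-/- microbead library 1, 3 or 4). Without the filter, 37 genes were called in Apoe-/-, 45 for the difference and 41 in sham, against 0, 0 and 1. The difference had 1 call with either covariate and 5 on log2(TPM + 1), and sham had 2 with the rod marker level. Members called were 0 under each setting except without the filter, where Atp5g2 made 1 call in Apoe-/-, in the difference and in sham.

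The member median in wild type, 0.09, was 0.17 without the filter and 0.18 with the satellite share as a covariate, and in sham -0.17 without the filter. On log2(TPM + 1) the medians were 0.82, 0.32, -0.52, -0.43 and -0.97, where all genes had 0.58, 0.18, -0.43, -0.30 and -0.73. Leaving out single libraries gave -0.15 to 0.0058 in sham and -0.23 to 0.041 in microbead. The summed level had ratios of 1.91, 1.26, 0.746 and 0.493 on deposited TPM, and 0.857 for sham on reads outside the satellite models. The causes were not tested.

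With the replicate number as a block, genes called were 7 in wild type and 1 for Apoe-/- against wild type in microbead, 0 members were called, and the median in wild type was 0.00958. Deviations from the group mean had correlations of -0.16 to 0.22 between libraries with the same number. Those with different numbers had -0.32 to 0.31. With so few libraries per group, these values cannot settle whether the numbers pair the samples.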
